A study of Mus musculus with 48 samples.

Results

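Cell cycle and proliferation genes were examined in cultured mouse kidney slices. The set holds 40 genes, chosen by symbol from a list of S-phase and mitotic genes, out of 55487 gene IDs in the count table, and all 40 had counts. Values are counts per gene against mouse build GRCm38, on which for example Pcna (ENSMUSG00000027342) lies on chromosome 2 from 132249162 to 132253314, Tk1 (ENSMUSG00000025574) on chromosome 11 from 117815526 to 117826092 and Mki67 (ENSMUSG00000031004) on chromosome 7 from 135689784 to 135716361. The genes fall into 5 roles: 7 G1 cyclins, kinases and their phosphatase (Ccnd1, Ccnd2, Cdk4, Ccne1, Ccne2, Cdk2, Cdc25a), 3 E2F factors (E2f1, E2f7, E2f8), 8 genes of origin licensing and the replicative helicase (Cdc6, Cdt1, Mcm2 to Mcm7), 6 genes of nucleotide supply and replication (Pcna, Rrm1, Rrm2, Tyms, Tk1, Uhrf1) and 16 genes of G2 and mitosis (Mki67, Top2a, Cdk1, Ccna2, Ccnb1, Ccnb2, Cdc20, Bub1, Bub1b, Plk1, Aurka, Aurkb, Birc5, Foxm1, Kif11, Cenpa).

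Cells leave quiescence through cyclin D and cyclin E kinases, which release E2F factors, and E2F-driven genes then load the MCM helicase on origins and supply nucleotides. Mitotic genes come later in the cycle, under B-MYB and FOXM1 acting with the MuvB complex, and the p53 target Cdkn1a (p21) restrains both waves. Most tubule cells of the adult kidney are quiescent and re-enter the cycle after injury, with some stalling before division.

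Kidneys were from males of 2 inbred strains, C57BL/6J and DBA/2J, which founded the BXD panel, and their slices were treated outside the body to model nephrotoxicity. Each strain had 8 conditions with 3 libraries each, giving 48 libraries in 16 groups. The conditions were untreated control, tunicamycin (an inhibitor of N-glycosylation) and cyclosporin A (a calcineurin inhibitor), each at 6 h and at 24 h, and a pair of oxygen conditions at 24 h, normoxia (titled ischemia) and normoxia-hyperoxia (titled reperfusion). The labels used here give no dose for either drug, no oxygen level for controls and no time for the switch to hyperoxia. The oxygen conditions carry no controls of their own in their titles and were compared with the 24 h controls, so the oxygen condition and that separate arm of the study cannot be told apart. Each library is labelled as a biological replicate, but whether the libraries of a group came from separate mice is not stated, so p-values measure the spread between these libraries.

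Library totals ran from 5619309 to 25137581 counts. The shallowest was replicate 2 of DBA/2J normoxia-hyperoxia, and the next lowest held 12384733 counts. Kidney markers were present throughout: the lowest count of any of the 6 proximal tubule, 3 podocyte or 3 loop and distal markers in any library was 81. The summed proximal tubule markers (Lrp2, Cubn, Slc34a1, Slc5a2, Slc22a6, Aqp1) averaged 3531 CPM (counts scaled to a common library total, the usual unit for comparing libraries) in C57BL/6J and 5966 in DBA/2J controls at 6 h, 487 and 1432 at 24 h, 6098 and 12185 in normoxia, and 188 and 657 in normoxia-hyperoxia. The 7 leukocyte markers (Ptprc, Adgre1, Csf1r, Cd68, Cd3e, Cd79a, S100a8) summed to 97.6 and 121, 119 and 171, 121 and 93.2, and 126 and 236 CPM in the same order, and Cd3e and S100a8 had 0 counts in some libraries. The 4 endothelial markers (Pecam1, Cdh5, Kdr, Emcn) summed to 1049 and 731, 1170 and 733, 586 and 348, and 1018 and 1071 CPM. The 4 fibroblast and mural markers (Pdgfrb, Pdgfra, Col1a1, Dcn) summed to 169 and 171, 112 and 97.7, 96.2 and 44.6, and 108 and 78.9 CPM. The mitochondrial share of counts averaged 15.4% and 8.16% at 6 h, 6.82% and 3.52% at 24 h, 23.9% and 12.3% in normoxia, and 14.1% and 13.7% in normoxia-hyperoxia. These shifts accompany the comparisons of time, oxygen and strain below, and their part in the results was not tested. In tissue counts, fewer cells of a type and less RNA per cell cannot be told apart.

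Promoters of the licensing and the mitotic genes were searched for short motifs, and examples are shown to set the letters of both groups side by side. RefSeq promoter windows (GRCm38.p6, 250 bases before to 50 after the start) were found for 33 of the 40 genes. An E2F site was searched as TTTCCCGC, TTTGGCGC, TTTCGCGC or TTTGCCGC and a cell cycle homology region, the MuvB contact site, as TTTGAA or TTCGAA, both on either strand. Matches of a motif on opposite strands may overlap, and a promoter was counted with 1 or more matches. An E2F match was present in 6 of 7 licensing promoters, 0 of 6 nucleotide promoters and 1 of 13 mitotic promoters, against 2.32% of 27025 promoters in all. The homology region matched in 11 of 13 mitotic and 2 of 7 licensing promoters, against 19.4% of all. A CCAAT box was present in 12 of 13 mitotic, 5 of 7 licensing and 4 of 6 nucleotide promoters, against 37.9%. A match is a description of letters and shows no binding. The stretches below run from 170 bases before to 30 after the start, 5′ to 3′ on the gene's strand, with E2F matches in capitals for the MCM genes and homology region matches in capitals for the mitotic genes.
Mcm3, chr1:20820283-20820482, minus strand: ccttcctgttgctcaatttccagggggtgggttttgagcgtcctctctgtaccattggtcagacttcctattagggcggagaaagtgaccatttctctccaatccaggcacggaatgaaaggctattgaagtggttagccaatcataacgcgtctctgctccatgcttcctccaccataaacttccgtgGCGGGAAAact
Mcm5, chr8:75109339-75109538, plus strand: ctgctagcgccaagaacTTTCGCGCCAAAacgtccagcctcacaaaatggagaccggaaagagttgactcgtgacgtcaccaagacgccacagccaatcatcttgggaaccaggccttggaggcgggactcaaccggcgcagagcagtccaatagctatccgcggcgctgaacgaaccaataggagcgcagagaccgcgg
Mcm6, chr1:128359676-128359875, minus strand: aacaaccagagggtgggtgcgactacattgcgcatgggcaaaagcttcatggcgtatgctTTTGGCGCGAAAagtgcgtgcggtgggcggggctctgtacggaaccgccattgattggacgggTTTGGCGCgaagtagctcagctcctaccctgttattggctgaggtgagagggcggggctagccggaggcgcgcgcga
Ccnb2, chr9:70421525-70421724, minus strand: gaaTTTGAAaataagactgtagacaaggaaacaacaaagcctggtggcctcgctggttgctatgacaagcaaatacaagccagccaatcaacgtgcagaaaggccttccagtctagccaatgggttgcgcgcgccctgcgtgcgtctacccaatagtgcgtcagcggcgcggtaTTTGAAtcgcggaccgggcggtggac
Cdc20, chr4:118437314-118437513, minus strand: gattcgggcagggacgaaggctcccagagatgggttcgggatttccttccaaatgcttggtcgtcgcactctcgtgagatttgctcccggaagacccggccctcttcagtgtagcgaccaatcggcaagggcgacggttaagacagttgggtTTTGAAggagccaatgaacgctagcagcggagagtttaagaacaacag
Kif11, chr19:37376212-37376411, plus strand: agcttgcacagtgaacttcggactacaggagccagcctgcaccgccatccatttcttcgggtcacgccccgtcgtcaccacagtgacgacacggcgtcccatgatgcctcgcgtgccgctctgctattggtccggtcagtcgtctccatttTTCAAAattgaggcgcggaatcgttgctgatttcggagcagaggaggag
Cenpa, chr5:30666716-30666915, plus strand: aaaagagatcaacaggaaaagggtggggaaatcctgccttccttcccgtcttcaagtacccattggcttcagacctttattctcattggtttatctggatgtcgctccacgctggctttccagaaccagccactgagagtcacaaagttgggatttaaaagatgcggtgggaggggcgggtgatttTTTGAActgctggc

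In Mcm5 the E2F letters lie as a pair of overlapping matches 153 to 142 bases before the start, and Mcm6 holds a similar pair from 110 to 99 bases before it. The homology region of Cdc20 lies 18 to 13 bases and that of Kif11 19 to 14 bases before the start, and that of Cenpa lies just after it. Ccnb2 holds 1 match far before the start, at 167 to 162 bases, and another just after it. Among other genes of the pathway, an E2F match was present in 6 of 22 further S-phase promoters and 2 of 28 further mitotic promoters. The homology region was found in 19 of those 28 mitotic promoters.

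**Figure D1:**
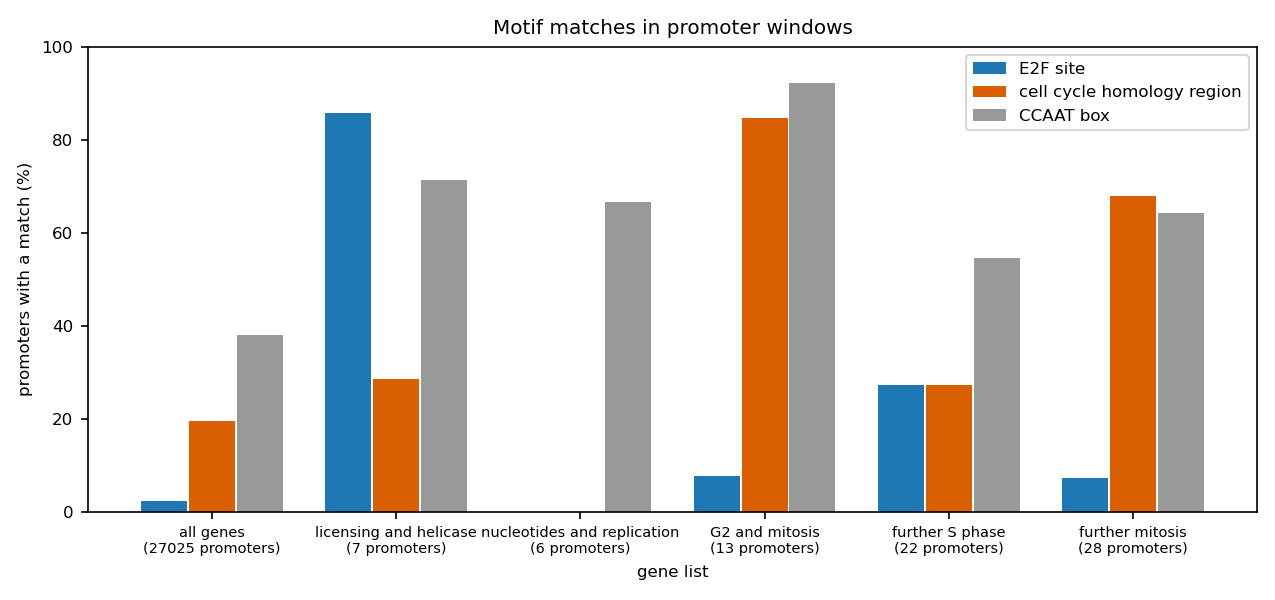
Share of RefSeq promoter windows (%, vertical axis) with at least 1 match to an E2F site, a cell cycle homology region or a CCAAT box, by gene list (horizontal axis, number of promoters in brackets). E2F matches are in 6 of 7 licensing promoters and homology region matches in 11 of 13 mitotic promoters.

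Levels spanned a wide range. Ccnd1, encoding cyclin D1, ran from 157 to 493 CPM over the 48 libraries with a median of 270, and Cdk4, its kinase partner, had a median of 63.6 CPM. Pcna, the replication clamp, had a median of 37.5 CPM, Mki67, the antigen of the Ki-67 proliferation stain, 8.63 CPM, Ccnb1, encoding cyclin B1, 0.418 CPM and Bub1, a spindle checkpoint kinase, 0.435 CPM. These are CPM values without length correction, so they order libraries within a gene and not genes. The ratio of the highest to the lowest group mean was 22.9 for Tk1, 17.4 for Aurkb, 10.1 for Bub1, 10.1 for Ccne1, 8.70 for Uhrf1 and 8.42 for Mcm6, and 1.63 for Cdk2 and 1.78 for Tyms. Of the 40 genes, 16 had their highest group mean in DBA/2J cyclosporin A slices at 24 h, 7 in DBA/2J normoxia-hyperoxia, 6 in DBA/2J normoxia and 3 in DBA/2J controls at 24 h. This ranking of means is not a test, and its share over all genes was not counted. Against the 24 h controls cyclosporin A had 0 of 16887 genes called and a member median log2 fold change of 0.06.

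**Figure D2:**
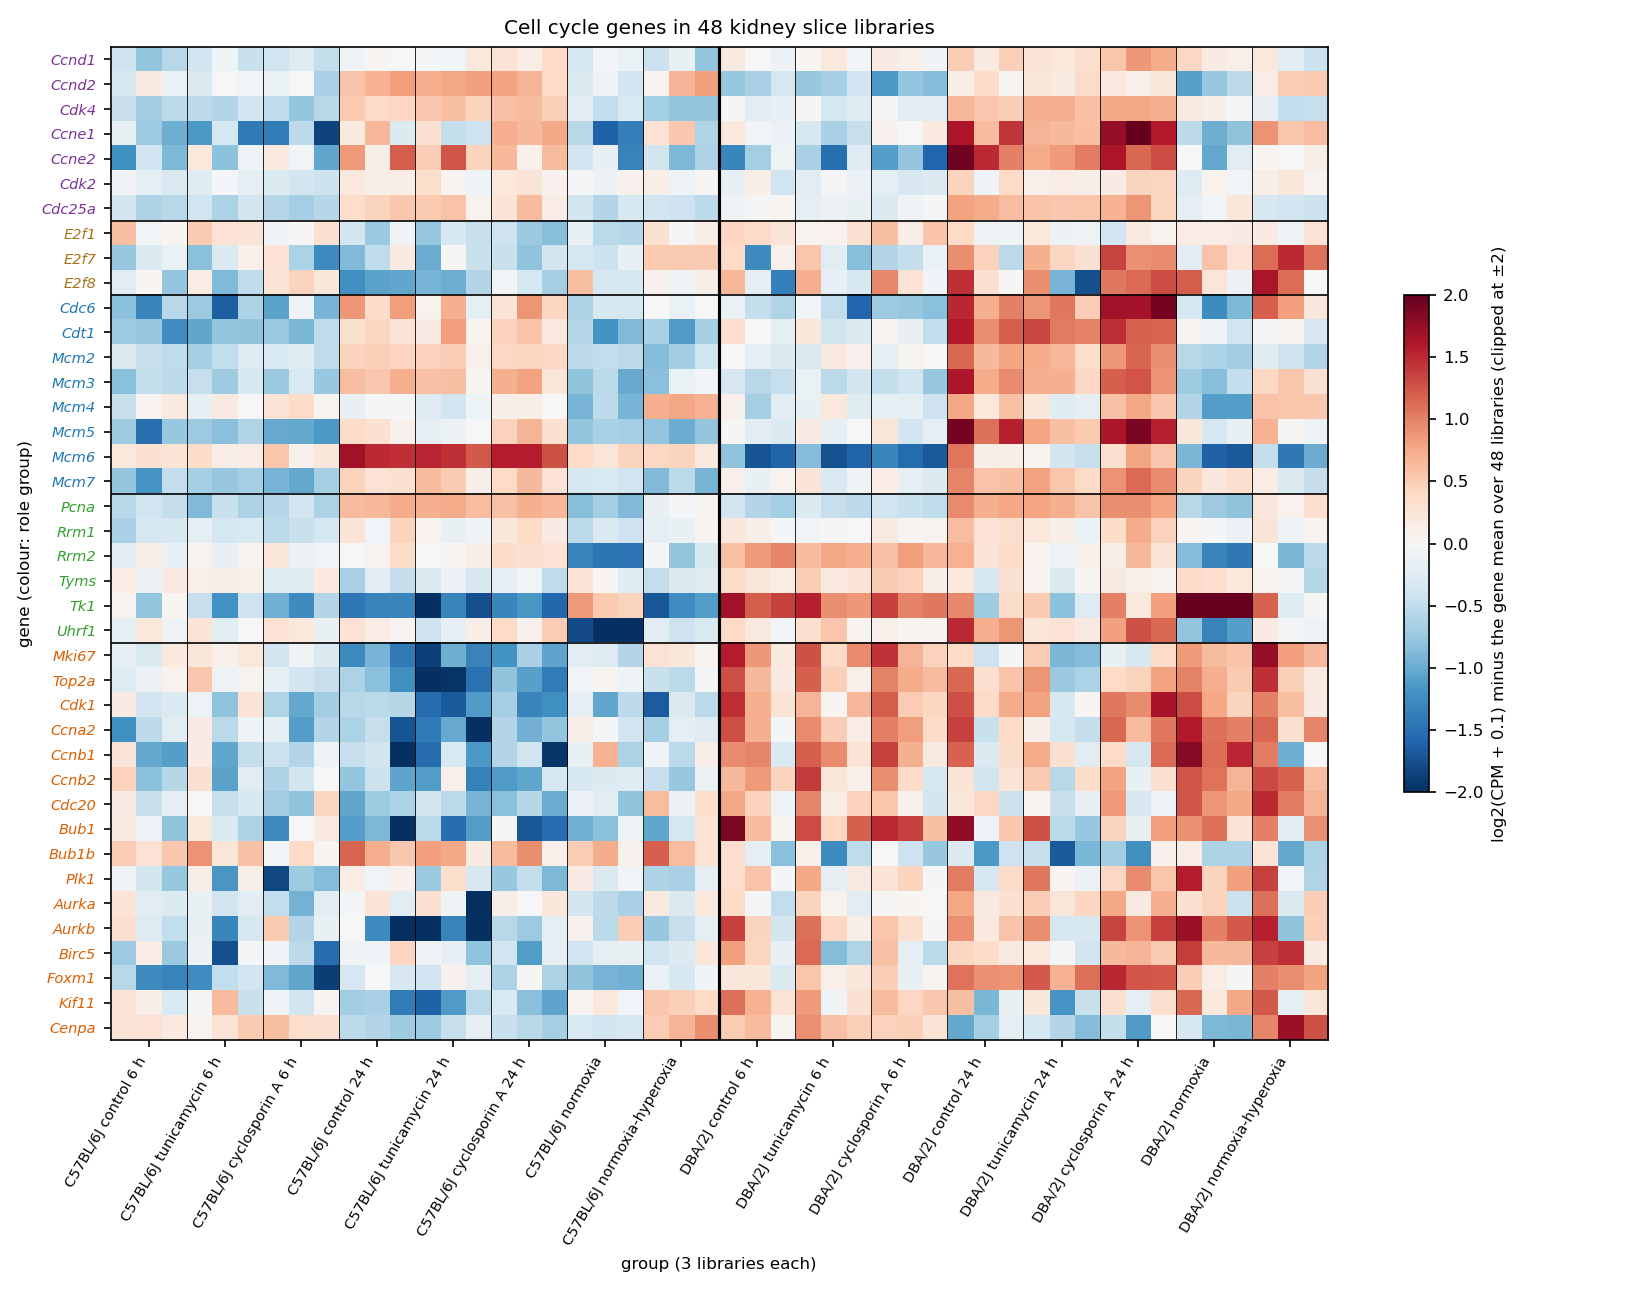
Each square is log2(CPM + 0.1) of 1 gene (vertical axis, coloured by role) in 1 library (horizontal axis, 3 per group) minus that gene's mean over the 48 libraries, clipped at ±2. G1, licensing and Pcna squares are on average higher at 24 h than at 6 h in control and drug groups, setting Mcm4 aside. Mcm4 is higher at 24 h in DBA/2J controls but not in C57BL/6J controls. Most mitotic squares are higher in DBA/2J on the right, and Mcm6 and Bub1b are higher in C57BL/6J on the left.

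Culture time was compared between 24 h and 6 h controls in both strains. Most licensing and G1 genes were higher at 24 h, and 6 of 16 mitotic genes were lower, a share near that of all genes. The edgeR quasi-likelihood test, with p-values adjusted over all 16962 genes tested, called 17 of the 40 genes higher and 10 lower, at adjusted p under 0.05. Of all genes, 34.7% were called higher and 37.4% lower (72.0% in either direction), so the share of members called, 27 of 40, lies near the background. The roles are described in turn below. The median log2 fold change was 0.09 over the members and -0.02 over all genes. Groups did not overlap in both strains for 15 members higher at 24 h (35.2% of all genes) and 2 lower (20.6%). Within C57BL/6J 14 members were called higher (28.9% of all genes) and 8 lower (32.6%), out of 61.5% of all genes called, and within DBA/2J 16 were higher (30.2%) and 5 lower (31.8%), out of 62.0%.

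In the licensing group 7 of 8 genes rose, with a median log2 fold change of 1.12. Mcm5, a subunit of the MCM helicase, was counted at 4.87, 2.76 and 4.71 CPM in C57BL/6J at 6 h and at 10.4, 9.97 and 8.56 CPM at 24 h. In DBA/2J the Mcm5 values were 8.18, 6.88 and 6.58 CPM at 6 h and 30.3, 17.3 and 23.7 CPM at 24 h. Every 24 h library lay above every 6 h library of its strain, and the rise averaged 1.27 on the log2 scale (SE 0.16, edgeR adjusted p = 4.03e-06). Mcm6 went from 16.9, 18 and 17.6 to 46.9, 41.2 and 40.2 CPM in C57BL/6J and from 8.27, 4.35 and 4.75 to 30.5, 16 and 16 CPM in DBA/2J. Its groups did not overlap in either strain, and the rise was 1.35 (SE 0.19, edgeR adjusted p = 3.53e-05). Cdc6, which loads the helicase with Cdt1, rose by 1.43 (SE 0.23), Mcm3 by 1.21, Cdt1 by 1.02, Mcm2 by 0.74 and Mcm7 by 0.72. Mcm4 was the member of this group without a call as a mean over both strains, at 0.16 (SE 0.14). Its libraries held 11.2, 15.9 and 17.3 CPM at 6 h and 13.8, 14.9 and 15 CPM at 24 h in C57BL/6J. Within DBA/2J alone all 8 licensing genes, Mcm4 included, were called higher (30.2% of all genes). Within C57BL/6J alone 7 of 8 were (28.9%), and no licensing gene had a call for the strain difference of this effect.

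In the G1 group 6 of 7 genes rose, by a group median of 0.63. Ccne2, encoding cyclin E2, showed the largest rise of the 40 genes: 0.391, 0.789 and 0.517 CPM became 1.99, 1.16 and 2.58 CPM in C57BL/6J, and 0.365, 0.621 and 0.972 became 4.37, 3.15 and 2.23 CPM in DBA/2J. The groups stood apart in both strains, at a log2 fold change of 1.81 (SE 0.30, edgeR adjusted p = 6.89e-05). Ccne1, encoding cyclin E1, rose by 0.95 (SE 0.28), Cdc25a, the phosphatase that activates Cdk2, by 0.64, Cdk4 by 0.63, Ccnd2 by 0.55 and Ccnd1 by 0.25 (SE 0.08). Cdk2 itself stood at 0.16 (SE 0.11) and was not called. Of the E2F factors, the activator E2f1 fell by 0.66 (SE 0.15), while the repressors E2f7, at 0.06 (SE 0.40), and E2f8, at -0.30 (SE 0.43), were imprecise at 1 CPM or less in most libraries.

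All 6 genes of the nucleotide group were called, 3 in each direction. Pcna held 29.4, 32.9 and 31.2 CPM at 6 h and 67.5, 68.4 and 72.9 CPM at 24 h in C57BL/6J, and 33.1, 29 and 27.1 against 83.9, 70.7 and 74.4 CPM in DBA/2J. The groups were far apart in both strains, and Pcna rose by 1.05 (SE 0.07, edgeR adjusted p = 6.63e-09). Tk1, the salvage thymidine kinase, went the other way, from 3.08, 1.69 and 3.05 to 1.05, 1.11 and 1.13 CPM in C57BL/6J and from 9.77, 7.04 and 7.83 to 5.88, 1.78 and 3.86 CPM in DBA/2J. It fell by 1.38 (SE 0.26, edgeR adjusted p = 0.00023). Tyms, which makes thymidylate, fell by 0.56 (SE 0.12). Smaller changes were called for Rrm1 (0.28) and Rrm2 (-0.29), the large and small subunits of ribonucleotide reductase, and for Uhrf1 (0.33), which recruits maintenance DNA methylation. Leaving out 1 of the 12 libraries ended these calls for 5, 7 and 7 of the 12, controls of both times and strains included.

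In the mitotic group 6 of 16 genes fell, near the 37.4% of all genes called lower, and 1 rose, and the median log2 fold change was -0.54. Mki67 stood at 7.05, 6.65 and 9.31 CPM at 6 h and 3.29, 4.22 and 2.99 CPM at 24 h in C57BL/6J. In DBA/2J it was spread over 24.4, 14.9 and 9.32 CPM at 6 h and 10.6, 6.04 and 7.98 CPM at 24 h, so that the C57BL/6J groups stood apart and the DBA/2J groups overlapped. Mki67 fell by 1.26 on the log2 scale (SE 0.23, edgeR adjusted p = 0.000244). Cenpa, the centromeric histone H3 variant, had 4.70, 4.79 and 4.45 CPM at 6 h and 2.69, 2.55 and 2.34 CPM at 24 h in C57BL/6J, and 5.57, 6.11 and 4.06 against 1.87, 2.38 and 3.38 CPM in DBA/2J. Its groups did not overlap in either strain, with a log2 change of -1.18 (SE 0.16). Kif11, the motor that separates spindle poles, fell by 1.08, Ccnb2, encoding cyclin B2, by 0.79, Cdc20, the activator of the anaphase-promoting complex, by 0.71 and Top2a, the topoisomerase that untangles sister chromatids, by 0.62 on the log2 scale. The call for Ccnb2 was lost without replicate 1 of the C57BL/6J 6 h controls. Foxm1, a transcription factor of mitotic genes, rose by 0.66 (SE 0.16). The 9 genes without a call ranged from -1.01 (SE 0.55) for Bub1 to 0.10 (SE 0.27) for Plk1, with Cdk1, the mitotic kinase, at -0.46 (SE 0.24) and Ccnb1 at -0.43 (SE 0.50).

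Other genes of the pathway were counted in the same way. Of 28 further S-phase genes 16 rose and 3 fell (median 0.39), led by Chek1, the replication checkpoint kinase, at 2.05 (SE 0.25), with Gmnn, encoding the licensing inhibitor geminin, at -1.21. Of 32 further mitotic genes tested 5 rose and 12 fell (median -0.45), the falls again near the background share, with Smc2, a condensin subunit, at 0.93 and Cenpf, a kinetochore protein, at -1.71. Among 19 brakes on the cycle tested, 7 rose and 9 fell, and Cdkn1a rose from 169, 322 and 195 to 769, 785 and 810 CPM in C57BL/6J and from 188, 200 and 211 to 579, 719 and 596 CPM in DBA/2J. No library overlapped, at a log2 fold change of 1.51 (SE 0.14, edgeR adjusted p = 4.4e-07). The p15 gene Cdkn2b rose by 2.52 and the antiproliferative gene Btg2 fell by 1.47, while Cdkn1b, encoding p27, stood at -0.12 (SE 0.09). Of 12 genes of G1 entry 6 rose and 4 fell, with Cdk6 at 1.47, Myc at 0.63 (SE 0.18) and E2f2 at -1.76. In the same comparison 6 of 6 proximal tubule markers fell, and of 6 leukocyte markers tested 1 rose (Cd68) and 3 fell. All 3 loop and distal, 3 collecting duct and 3 podocyte markers fell, of 4 endothelial markers 1 rose (Cdh5, 0.67) and 2 fell, and of 4 fibroblast and mural markers 0 rose and 3 fell, Col1a1 lowest at -2.22.

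**Figure D3:**
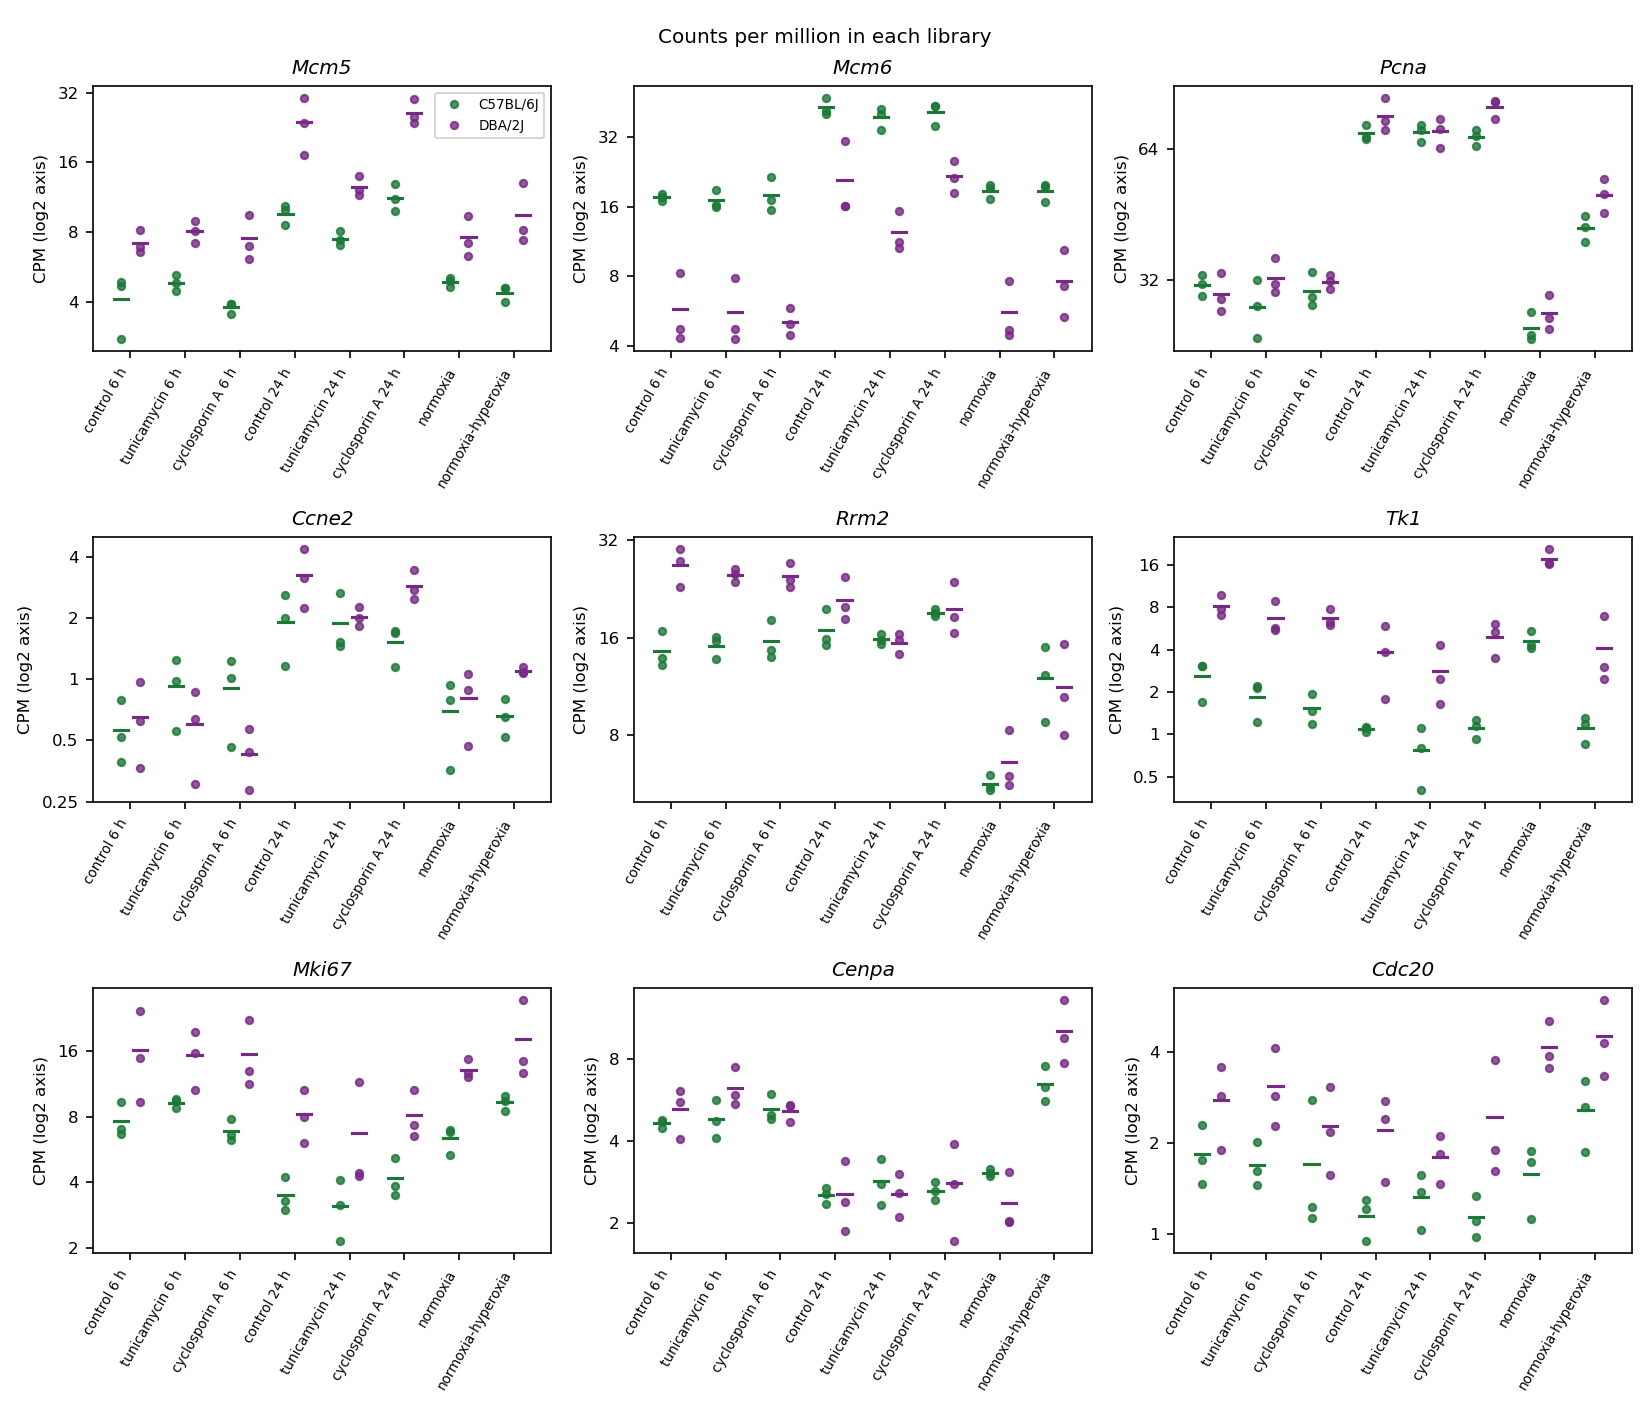
CPM per library (points, log2 vertical axis) for 9 genes over the 8 conditions (horizontal axis), C57BL/6J in green and DBA/2J in purple; bars are means of 3 libraries. Mcm5, Mcm6, Pcna and Ccne2 are high at 24 h in control and drug slices and low at 6 h and in normoxia, whereas Tk1, Mki67 and Cdc20 are high in DBA/2J normoxia.

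Normoxia slices were compared with the 24 h controls. All 8 licensing genes and 5 of 7 G1 genes were lower in normoxia, and 8 of 16 mitotic genes were higher, a share near that of all genes. By edgeR 11 of the 40 genes were called higher and 18 lower. Of 17375 genes tested, 42.4% were called higher and 39.7% lower (82.0% in all). The median log2 fold change was 0.07 over the members and 0.05 over all genes. Groups did not overlap in both strains for 3 members higher (26% of all genes) and 18 lower (39.9%). This comparison shares its 24 h controls with the comparison over time, so a value in those controls that is high or low by chance moves both in opposite directions.

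All 8 licensing genes fell in normoxia, by a median log2 change of -1.04, and none of their groups overlapped in either strain. Mcm5 held 4.64, 5.05 and 4.95 CPM in C57BL/6J normoxia and 9.38, 6.31 and 7.19 CPM in DBA/2J normoxia, all below the 24 h controls and close to the 6 h control values given above. Mcm3 fell by 1.35 (SE 0.14), Cdc6 by 1.34, Mcm6 by 1.27 and Mcm4 by 0.81, and Mcm7 had the smallest change at -0.28 (SE 0.08). Of the G1 genes 5 of 7 fell, with Ccne1 at -1.64 (SE 0.31), Ccne2 at -1.42, Ccnd2 at -0.68, Cdc25a at -0.52 and Cdk4 at -0.35, while Ccnd1 stood at 0.12 (SE 0.08) and Cdk2 at 0.01 (SE 0.10). Of the E2F factors, E2f8 was called higher at 0.91 (SE 0.40), and 10 of 17 alternative settings, 7 of them with 1 library left out, lost that call.

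In the nucleotide group 4 genes fell and 2 rose. Uhrf1 fell from 12.1, 11 and 10.3 CPM in C57BL/6J and 28, 16.4 and 18.4 CPM in DBA/2J controls to 2.80, 2.33 and 2.19 CPM and 5.69, 3.86 and 4.58 CPM. The groups stood far apart, at a log2 change of -1.89 (SE 0.15, edgeR adjusted p = 8.62e-09). Rrm2 had its lowest means of the 16 groups here, with 6.04, 5.55 and 5.41 CPM in C57BL/6J and 8.31, 5.99 and 5.59 CPM in DBA/2J, and it fell by 1.34 (SE 0.12). Pcna fell by 1.23 (SE 0.07). Tk1 stood above every 24 h control of its strain, with 5.47, 4.31 and 4.08 CPM in C57BL/6J and 20.7, 16.4 and 16.1 CPM in DBA/2J. It rose by 2.42 (SE 0.23, edgeR adjusted p = 3.36e-07), against the direction of Rrm2 in the same nucleotide pathway, and Tyms rose by 0.63 (SE 0.13).

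In the mitotic group 8 of 16 genes rose in normoxia, near the 42.4% of all genes, 7 were not called and 1 fell, with a median of 0.68. Mki67 stood at 6.95, 6.78 and 5.36 CPM in C57BL/6J and 14.7, 12.7 and 12.1 CPM in DBA/2J, above every 24 h control of its strain, and rose by 1.04 (SE 0.14, edgeR adjusted p = 5.34e-06). Ccnb1 rose by 1.31 (SE 0.42), Aurkb, a kinase of the chromosomal passenger complex, by 1.18 (SE 0.34), Kif11 by 1.18, Ccnb2 by 1.01, Ccna2, encoding cyclin A2, by 0.97, Cdc20 by 0.96 and Top2a by 0.71. Of these, Mki67 and Ccnb2 were the genes whose groups did not overlap in either strain. Foxm1 fell by 0.47 (SE 0.13). Cenpa, which had fallen over time, was not called at 0.37 (SE 0.18, edgeR adjusted p = 0.0637), and Cdk1 stood at 0.31 (SE 0.23).

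Gadd45b, Cdkn1a and Myc showed the largest changes among the members and further genes of the pathway in normoxia. Cdkn1a was down to 7.70, 8.37 and 8.88 CPM in C57BL/6J and 19.4, 19.4 and 17.3 CPM in DBA/2J, a log2 change of -5.55 (SE 0.08, edgeR adjusted p = 3.84e-17). These values lie below the 6 h controls as well. Myc, a driver of G1 entry, went from 220, 212 and 206 CPM to 3.85, 3.57 and 5.20 CPM in C57BL/6J and from 192, 201 and 198 CPM to 6.18, 5.73 and 6.22 CPM in DBA/2J, at -5.07 (SE 0.08). Of 19 brakes 12 fell and 2 rose, with Gadd45b, a stress-induced gene, at -6.53 and Cdkn2c, encoding p18, at 1.88. Of 12 G1 entry genes 5 rose and 5 fell, E2f2 being highest at 3.13. Of 28 further S-phase genes 6 rose and 10 fell, with Chek1 at -1.97. Of 32 further mitotic genes 16 rose and 5 fell, with the kinetochore motor Cenpe at 1.87 and the spindle assembly factor Tpx2 at -2.77. Of the cell type markers 6 of 6 proximal tubule genes rose, and of 7 leukocyte genes 5 rose and 1 fell (Cd68). All 3 loop and distal and 3 collecting duct markers rose and 2 of 3 podocyte markers fell. Of 4 endothelial markers 1 rose (Kdr, 0.78) and 2 fell, Cdh5 lowest at -2.20, and of 4 fibroblast and mural markers 0 rose and 2 fell.

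Normoxia-hyperoxia slices were compared with the same 24 h controls. Most licensing genes were lower here too, but Mcm4 was higher, and Cenpa, Mki67 and Cdc20 were higher. The edgeR test called 9 members higher and 12 lower, where 34.1% of 17256 genes were called higher and 34.1% lower (68.2% in all). The median log2 fold change was 0.13 over the members and 0.00 over all genes. Groups did not overlap in both strains for 4 members higher (17.8% of all genes) and 12 lower (33.1%). Without the shallow replicate 2 of DBA/2J normoxia-hyperoxia the count stayed at 21.

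Of the 8 licensing genes 6 fell and 1 rose, with a median of -0.94. Mcm5 stood at 4.58, 3.98 and 4.59 CPM in C57BL/6J and 13, 8.19 and 7.42 CPM in DBA/2J, all under the controls, at -1.05 (SE 0.16, edgeR adjusted p = 5.07e-05). Mcm6 fell by 1.12, Cdt1 by 1.11, Mcm2 by 1.03, Mcm7 by 0.85 and Mcm3 by 0.67, and Cdc6 was not called at -0.39 (SE 0.22). Mcm4, another subunit of the same hexamer, read 24.9, 26.2 and 24.7 CPM in C57BL/6J and 22.6, 22.4 and 22.3 CPM in DBA/2J. The C57BL/6J values lay above their controls (13.8, 14.9 and 15 CPM) and the DBA/2J values lay within theirs (26.1, 17.7 and 22.9 CPM), with a mean log2 fold change of 0.58 (SE 0.09, edgeR adjusted p = 3.34e-05).

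Of the G1 genes Ccne2 fell by 1.36 (SE 0.25), Cdk4 by 0.88 and Cdc25a by 0.82, while Ccne1 stood at -0.18 (SE 0.28) and Ccnd1 at -0.29 (SE 0.13). The 3 E2F factors were all called higher as a mean over both strains, E2f7 by 1.11 (SE 0.30), E2f8 by 1.05 (SE 0.39) and E2f1 by 0.47 (SE 0.15). Within C57BL/6J alone all 3 were called higher (median 1.25), and within DBA/2J alone 0 were (median 0.47). Of 17256 genes, 4973 were called higher within C57BL/6J and 4836 within DBA/2J. No E2F factor had a call for the strain difference of this effect. The E2f8 call over both strains was lost without C57BL/6J control replicate 1 or 2, DBA/2J control replicate 2 or 3, or DBA/2J normoxia-hyperoxia replicate 1. In the nucleotide group Uhrf1 fell by 0.60, Rrm2 by 0.50 and Pcna by 0.49 (SE 0.06). Pcna values of 39.2, 42.3 and 44.8 CPM in C57BL/6J and 50.5, 45.7 and 54.5 CPM in DBA/2J lay between the 6 h and the 24 h controls. Tk1, at 0.27 (SE 0.32), and Tyms, at 0.10 (SE 0.14), were not called.

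Cenpa had its highest means of the 16 groups in normoxia-hyperoxia, with 5.59, 6.29 and 7.51 CPM in C57BL/6J and 7.75, 13.2 and 9.53 CPM in DBA/2J. Every one of these lay above the 24 h controls, and Cenpa rose by 1.82 on the log2 scale (SE 0.17, edgeR adjusted p = 1.67e-07). Mki67 rose by 1.45 (SE 0.21), with 9.90, 9.47 and 8.52 CPM in C57BL/6J and 27.5, 14.4 and 12.7 CPM in DBA/2J, again apart from the controls in both strains. Cdc20 rose by 1.26, Kif11 by 1.22 and Ccnb2 by 0.83, so that 5 of 16 mitotic genes rose, near the 34.1% of all genes. The other 11 were not called, among them Cdk1 at -0.03 (SE 0.27), Ccnb1 at 0.46 (SE 0.48) and Top2a at 0.50 (SE 0.24). Cdkn1a fell by 1.02 and Myc by 1.08, and Cdkn1b was called higher at 0.21 (SE 0.09, edgeR adjusted p = 0.0434). Of 19 brakes 9 rose and 8 fell, with Btg2 at 1.88 and Cdkn2b at -1.88, and of 12 G1 entry genes 4 rose and 5 fell, with E2f2 at 1.72 and Cdk6 at -1.20. Of 28 further S-phase genes 1 rose (Gmnn, 0.89) and 13 fell, Chek1 lowest at -1.39. Of 32 further mitotic genes 16 rose and 3 fell, with Cenpf at 1.58 and Smc2 at -0.96. Beside these changes 5 of 6 proximal tubule markers fell, and of 7 leukocyte markers 6 rose and 1 fell (Cd68). All 3 loop and distal, 3 collecting duct and 3 podocyte markers rose, of 4 endothelial markers 2 rose (Kdr, 1.55, and Emcn, 0.94) and 1 fell, and of 4 fibroblast and mural markers 1 rose (Col1a1, 1.07) and 1 fell.

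**Figure D4:**
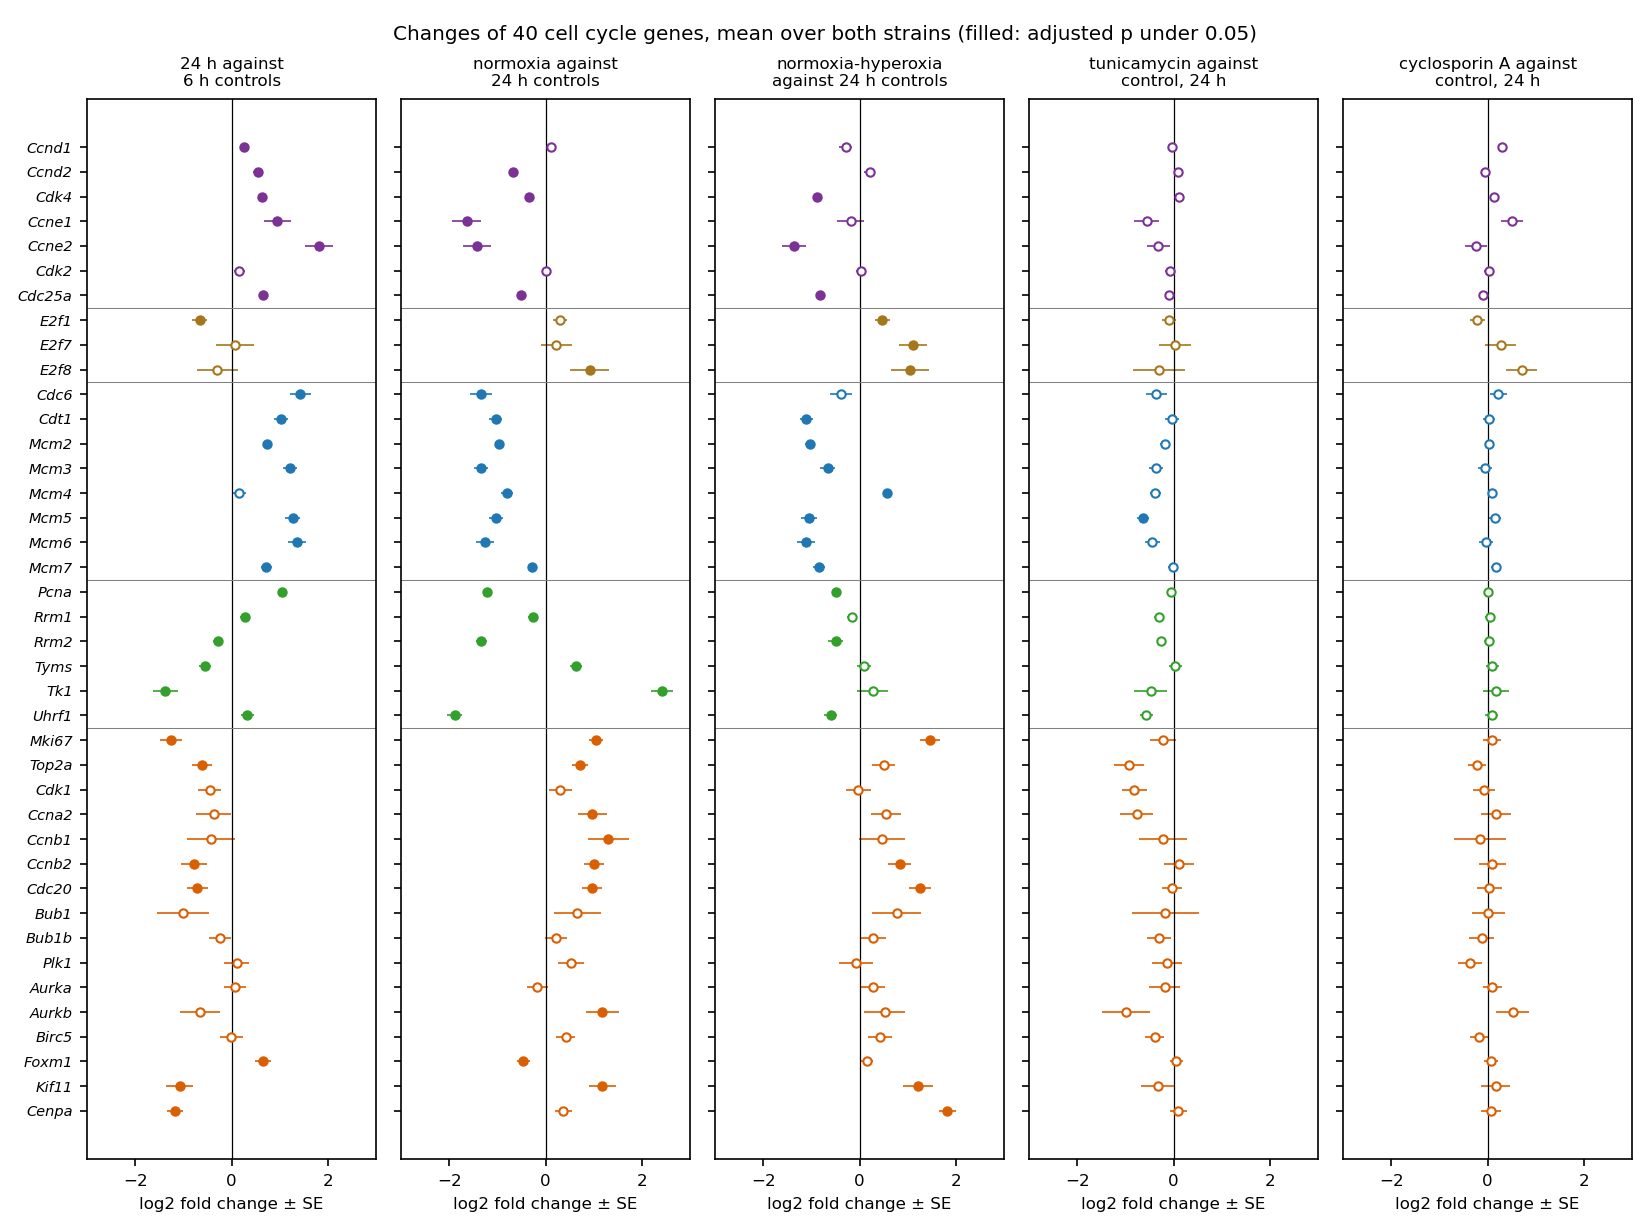
Log2 fold change with SE (horizontal axis) of the 40 genes (vertical axis, coloured by role) in 5 comparisons, as the mean over both strains; filled points passed adjusted p under 0.05. The 4 right-hand comparisons share the 24 h controls with the first; licensing genes lie to the right over time and to the left in both oxygen conditions, except Mcm4 in normoxia-hyperoxia.

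The oxygen conditions were also compared with each other, which involves no control library. Normoxia-hyperoxia had 12 members higher than normoxia and 7 lower, where 37% of 17228 genes were called higher and 36.5% lower (73.5% in all), and the member median was 0.08 against 0.02. Groups did not overlap in both strains for 8 members higher (28.4% of all genes) and 4 lower (25.3%). Cenpa was higher by 1.47 (SE 0.16), Ccne1 by 1.47 (SE 0.31), Mcm4 by 1.40 (SE 0.11), Uhrf1 by 1.30 (SE 0.13), Cdc6 by 0.97, Ccnd2 by 0.91, E2f7 by 0.91, Rrm2 by 0.85, Pcna by 0.75, Mcm3 by 0.70 and Foxm1 by 0.64. Tk1 was lower by a log2 change of -2.11 (SE 0.22, edgeR adjusted p = 9.66e-07), and lower values were also called for Mcm7 (-0.55), Tyms (-0.52), Cdk4 (-0.51), Ccnd1 (-0.40) and Cdc25a (-0.29). The calls for Mki67 (0.43) and Ccnb1 (-0.83) were lost in 10 and 11 of 17 alternatives. Mcm5 was level at 0.00 (SE 0.16), and Mcm2, Cdt1 and Mcm6 lay between -0.06 and 0.16. Cdkn1a was higher by 4.54 (SE 0.11) and Myc by 4.00 (SE 0.12). Of 19 brakes 13 rose and 4 fell, with Gadd45b at 7.07 and Cdkn2c at -1.0. Further S-phase genes split into 7 higher and 8 lower of 28, with Cdc7, a kinase that fires origins, at 1.25. Further mitotic genes split into 5 higher and 7 lower of 33, from Tpx2 at 2.23 to the centrosomal kinase Nek2 at -1.06, and E2f2 led the 4 falls among 12 G1 entry genes at -1.40.

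Tunicamycin at 24 h left most of the set without a call. By edgeR 1 of 40 genes was called, Mcm5, where 1.38% of 16905 genes were called in either direction (0.97% higher, 0.408% lower), and 11 members and 2174 genes (12.9%) had an unadjusted p under 0.05. Mcm5 held 7.05, 7.42 and 8.06 CPM with tunicamycin against 10.4, 9.97 and 8.56 CPM in C57BL/6J controls, and 14, 12.2 and 11.5 against 30.3, 17.3 and 23.7 CPM in DBA/2J. The groups did not overlap in either strain, a pattern seen lower in 1.76% of all genes, and the log2 change was -0.64 (SE 0.13, edgeR adjusted p = 0.0235). Leaving out 1 library ended this call for C57BL/6J control replicate 1 or 2, C57BL/6J tunicamycin replicate 1 or 2, DBA/2J control replicate 3 or DBA/2J tunicamycin replicate 3. Of these 2174 genes 1092 had higher and 1082 lower values, and the 11 members, all lower, included Uhrf1 at -0.57 (edgeR adjusted p = 0.0578), Mcm4 at -0.38, Cdk1 at -0.82 and Top2a at -0.93 (SE 0.31). The member median was -0.23, and the median of all genes was 0.01. DESeq2 called 3 members, Mcm5, Mcm4 and Uhrf1. Mki67 stood at -0.23 (SE 0.27) and Ccnb1 at -0.23 (SE 0.50), and Cdkn1a stood at 0.02 (SE 0.07).

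Cyclosporin A at 24 h gave no member a call, by edgeR or by DESeq2, and edgeR called 0 of all 16887 genes (0.0%), with 4 members and 1107 genes at an unadjusted p under 0.05. Ccnd1 had 326, 298 and 357 CPM against 257, 277 and 268 CPM in C57BL/6J controls, and 396, 493 and 454 against 381, 305 and 378 CPM in DBA/2J. It was the member whose groups did not overlap in either strain (0.687% of all genes in that direction, 0.361% in the other), at a log2 fold change of 0.29 (SE 0.07, edgeR unadjusted p = 0.0015, adjusted p = 0.642). Ccne1 stood at 0.50 (SE 0.22) and Mcm5 at 0.16 (SE 0.13), and the member median was 0.06. At 6 h neither drug gave a call by edgeR or DESeq2: tunicamycin had 0 of 40 members and 281 of 16551 genes at an unadjusted p under 0.05, and cyclosporin A had 1 member (Tk1, -0.50, SE 0.17) and 734 of 16538 genes. No member's groups stood apart in both strains at 6 h, where 0.0725% of all genes did so higher and 0.0665% lower with tunicamycin, and 0.0967% and 0.647% with cyclosporin A.

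Strain differences were compared in the 4 conditions of control slices and oxygen, each as DBA/2J against C57BL/6J within a condition. Of the 16 mitotic genes 3 were called higher in DBA/2J and 0 lower in 6 h controls, 6 and 1 in 24 h controls, 12 and 0 in normoxia, and 6 and 1 in normoxia-hyperoxia. Aurka, Kif11 and Cenpa had no call in any of the 4. By edgeR 11 members were higher and 2 lower in 6 h controls (13.6% and 12.7% of all genes), 13 and 3 in 24 h controls (13.9% and 8.27%), 22 and 2 in normoxia (27.5% and 19.7%), and 9 and 2 in normoxia-hyperoxia (12.2% and 11.5%). The member medians were 0.43, 0.54, 0.64 and 0.53, and those of all genes 0.00, 0.04, 0.06 and -0.01. Medians of the mitotic group were 0.73, 1.05, 1.25 and 1.00. Counts moved with single libraries: 8 members in 6 h controls without DBA/2J replicate 2, 9 in 24 h controls without C57BL/6J replicate 3 or DBA/2J replicate 1, and in normoxia-hyperoxia 4 without DBA/2J replicate 1, 6 without C57BL/6J replicate 1 and 7 without C57BL/6J replicate 2.

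The test called 6 members higher in DBA/2J in all 4 conditions, namely Cdt1, Mcm5, Tk1, Mki67, Cdk1 and Foxm1, where 5.25% of the 16653 genes tested in all 4 were. Mcm6 was called lower in all 4, as were 2.58% of those genes. The Tk1 difference was 1.51, 1.77, 1.98 and 1.83 on the log2 scale in the order 6 h, 24 h, normoxia and normoxia-hyperoxia. Its DBA/2J values never fell below 1.78 CPM in 24 h controls, where C57BL/6J reached 1.13 CPM. Foxm1 differed by 0.97, 1.17, 1.19 and 1.00, with 8.74, 7.76 and 7.65 against 3.19, 4.03 and 3.23 CPM in the 24 h controls. Mcm5 differed by 0.67, 1.27, 0.70 and 1.04, Cdt1 by 0.82, 0.89, 0.78 and 0.59, Mki67 by 0.93, 1.18, 1.10 and 0.88, and Cdk1 by 0.97, 1.45, 1.53 and 1.30. Of these 7 genes, Foxm1 and Mcm6 kept their calls in all 17 alternatives in all 4 conditions. At 6 h the call was lost in 9 alternatives for Mcm5, 8 for Cdk1, 6 for Mki67 and 1 for Cdt1, and at 24 h in 4 for Mki67. In normoxia it was lost in 1 for Mcm5, and in normoxia-hyperoxia in 5 for Cdt1, 4 for Mki67, 2 for Cdk1 and 1 each for Mcm5 and Tk1. Mcm6 differed by -1.73, -1.06, -1.68 and -1.32, with the 6 h values of 8.27, 4.35 and 4.75 CPM in DBA/2J all below the 16.9, 18 and 17.6 CPM of C57BL/6J. Mcm4, another subunit of the helicase, stood at -0.33, 0.58, -0.07 and -0.28 with no call.

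Over all 8 conditions, drugs included, the 3 DBA/2J libraries lay above the 3 C57BL/6J libraries in every condition for 5 members, Cdt1, Mcm5, Tk1, Mki67 and Foxm1 (6.62% of 18491 genes with a mean of at least 0.2 CPM). The reverse held in every condition for Mcm6 (1.69%). In at least 6 of the 8 conditions 12 members stood apart higher in DBA/2J (14.9%) and 2, Ccnd2 and Mcm6, lower (5.31%). These counts use CPM, whose totals include the larger mitochondrial share of C57BL/6J slices, and whether slices of different conditions share mice is not stated. Ccnd2 was called lower in DBA/2J at 6 h (-0.65), 24 h (-0.55) and normoxia (-0.48), with the 24 h call lost in 3 of 17 alternatives. Bub1b, a spindle checkpoint kinase, was called lower at 24 h (-1.52, SE 0.33) and in normoxia-hyperoxia (-1.15, SE 0.37). The Bub1b call in normoxia-hyperoxia was lost in 4 of 17 alternatives, each leaving out 1 library. Beside these differences DBA/2J slices had 4, 6, 5 and 5 of 6 proximal tubule markers higher in the same 4 conditions. Of the leukocyte markers 1 and 3 of 6 were higher in the controls, 3 of 7 were lower in normoxia and 6 of 7 were higher in normoxia-hyperoxia. Of the 4 endothelial markers 4, 2, 3 and 0 were lower in DBA/2J, and of the 4 fibroblast and mural markers 0, 1, 4 and 1, with none of either list higher.

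**Figure D5:**
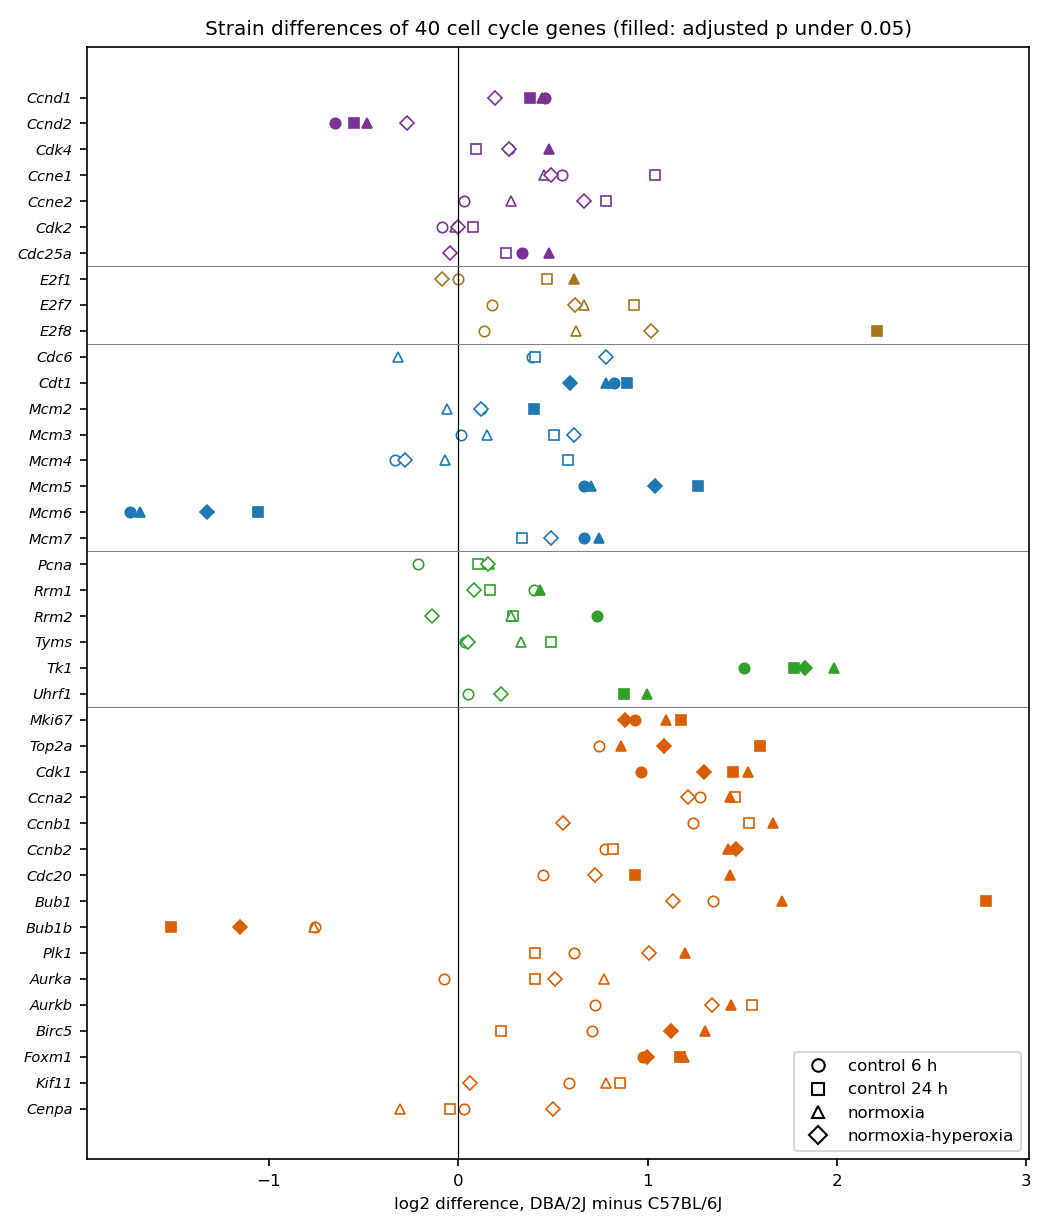
Log2 difference of DBA/2J minus C57BL/6J (horizontal axis) for the 40 genes (vertical axis, coloured by role) in 4 conditions (symbols); filled symbols passed adjusted p under 0.05. Tk1 lies between 1.51 and 1.98 and Mcm6 between -1.73 and -1.06 in all 4 conditions.

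The strains' responses were compared directly through the interaction term. For culture time edgeR called 0 of 40 members, with 0 calls by DESeq2, where 0.69% of all genes were called, and 4 members and 2242 of 16962 genes had an unadjusted p under 0.05. For normoxia 1 member was called (17% of all genes): Cdk4 fell by 0.56 in C57BL/6J and was at -0.14 in DBA/2J, a difference of 0.42 (SE 0.13, edgeR adjusted p = 0.0364). For normoxia-hyperoxia 1 member was called (1.43%): Mcm4 rose by 0.99 in C57BL/6J and stood at 0.16 in DBA/2J, a difference of -0.83 (SE 0.18, edgeR adjusted p = 0.0328). Between the oxygen conditions 2 members were called (18.2%). Uhrf1 was higher in normoxia-hyperoxia by 1.69 in C57BL/6J and 0.91 in DBA/2J, and E2f1 was higher by 0.54 in C57BL/6J and at -0.16 in DBA/2J. None of these 4 calls held in all 17 alternatives: Cdk4 lost it in 11, Mcm4 in 10, Uhrf1 in 10 and E2f1 in 14, most of them with 1 library left out. For both drugs at both times edgeR gave 0 interaction calls among all genes and DESeq2 0 among the members. At an unadjusted p under 0.05 edgeR had 2 members and 259 genes for cyclosporin A at 24 h. It had 0 members in the other three drug comparisons, with 338 genes for tunicamycin at 24 h, 407 for cyclosporin A at 6 h and 288 for tunicamycin at 6 h.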

How the data were processed

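RNA from 48 kidney slice libraries was prepared with a Qiagen kit and a stranded Illumina mRNA protocol, per the labels' protocols. The authors deposited 1 table of raw counts per Ensembl gene ID, made with bcl2fastq 2.20.0, FastQC 0.11.8, STAR 2.7.9a, featureCounts 1.5.1 and GRCm38, per the submitters' processing notes. The strand setting and annotation release are not given in the sources used here. GRCm38 is a C57BL/6J assembly, and both strains were counted against it. The effect of that choice on strain differences was not tested.

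Symbols were matched for 55141 of 55487 IDs, and gene coordinates come from GENCODE M21. Each comparison used 12 libraries in 4 groups (2 strains by 2 conditions), the filterByExpr filter, TMM factors and the robust quasi-likelihood test of edgeR 4.0.16 (limma 3.58.1, R 4.3.3), with Benjamini-Hochberg adjustment over all genes tested. A prior count of 2 entered only the log2 values behind the correlations of same-numbered libraries. Fold changes are means of both strains' effects unless a strain is named. Each SE is the absolute log2 fold change divided by the square root of the F statistic of the edgeR test. Levels are CPM by library total. The threshold was an adjusted p of 0.05. On simulated counts for 16501 genes of the comparison over time, 94% of 100 genes changed by a log2 of 1 and 100% of those changed by 2 were recovered, with 9 false calls. The changed genes were drawn above a floor of mean count, changed alike in both strains, and all other genes were left unchanged. In the data 72.0% of genes were called. The recovery therefore does not describe members with low counts, such as Ccnb1 and Bub1, or effects that differ between strains.

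The 40 genes and all lists were chosen with earlier results of these data known. Any of the 40 may be named; 10 (Mki67, Top2a, Ccnb1, Cdk1, Mcm5, Pcna, Rrm2, Ccnd1, Ccne1, E2f1), the largest called changes per role, Cdkn1a, Cdkn1b, Myc and the largest called rise and fall of each further list at a mean of at least 1 CPM were to be given. Of the further genes this rule picks, 1 is withheld and not reported here, although its list's counts include it. Promoter windows were available for 33 genes. Replicate numbers were not used to pair libraries, since the labels give them no shared mouse, batch or day. Alternatives were DESeq2 1.42.0, its size factors within edgeR, no filter, a fit of all 48 libraries, a replicate block, TMM-adjusted CPM and leaving out each library.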

Additional observations from a re-analysis of the deposited data

Results flagged for a closer look

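Among the members and the named further genes of the pathway the interaction test called 8 effects, given as the effect in DBA/2J minus that in C57BL/6J on the log2 scale with edgeR adjusted p-values. The share of all genes called was 17% in normoxia, 1.43% in normoxia-hyperoxia and 18.2% between the oxygen conditions, and of the members' calls Cdk4 lost it in 11 of 17 alternatives, Mcm4 in 10, Uhrf1 in 10 and E2f1 in 14. In normoxia against 24 h controls Cdkn1a fell by 6.35 in C57BL/6J and by 4.75 in DBA/2J, a difference of 1.60 (SE 0.14, adjusted p = 9.08e-06). Myc fell by 5.45 and 4.69, a difference of 0.75 (SE 0.15, adjusted p = 0.00339), and Tpx2 by 3.28 and 2.25, a difference of 1.03 (SE 0.33, adjusted p = 0.0414). Cdk4 differed by 0.42 (adjusted p = 0.0364). In normoxia-hyperoxia against 24 h controls Mcm4 differed by -0.83 (adjusted p = 0.0328). Between the oxygen conditions Cdkn1a was higher in normoxia-hyperoxia by 5.22 in C57BL/6J and 3.87 in DBA/2J, a difference of -1.36 (SE 0.20, adjusted p = 0.000582), and the differences were -0.78 for Uhrf1 (adjusted p = 0.042) and -0.70 for E2f1 (adjusted p = 0.049). The Cdkn1a and Myc differences in normoxia share the 24 h control libraries with those of Cdk4 and Tpx2. Both Cdkn1a differences also share the normoxia libraries, so a value there that is high or low by chance moves them in opposite directions.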

How the results depend on the processing

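Calls held in all 17 alternatives for 23 of 27 members over time, 28 of 29 in normoxia, 20 of 21 in normoxia-hyperoxia and 17 of 19 between the oxygen conditions, and for 7 of 13, 9 of 16, 17 of 24 and 3 of 11 in the strain comparisons at 6 h, 24 h, normoxia and normoxia-hyperoxia. With 1 library left out the member counts ranged from 24 to 27 over time, 28 to 32 in normoxia, 20 to 24 in normoxia-hyperoxia, 17 to 22 between the oxygen conditions, 8 to 16, 9 to 21, 19 to 25 and 4 to 15 in the strain comparisons, 0 to 3 for tunicamycin at 24 h, and 0 to 4, 0 to 1 and 0 to 3 for the interactions of normoxia, normoxia-hyperoxia and the oxygen conditions. For tunicamycin at 24 h DESeq2, the fit of all 48 libraries and no filter each called 3 members, and the replicate block called 4, adding Mcm4, Mcm6 and Top2a to Mcm5. In no comparison were all 6 correlations of same-numbered deviations above 0.1, so the block was not taken as a pairing, but all 3 were within DBA/2J for tunicamycin at 24 h (0.211, 0.216 and 0.202) and between the oxygen conditions, and within C57BL/6J for tunicamycin at 6 h and normoxia-hyperoxia. The normoxia interaction called 0 members with DESeq2 size factors, 0 in the fit of all 48 libraries, 3 with no filter and 4 with the replicate block. The normoxia-hyperoxia interaction called 0 in the fit of all 48 libraries. That between the oxygen conditions called 1 with DESeq2, 1 with its size factors, 1 with no filter and 0 in the fit of all 48 libraries, and that of time called 2 with no filter. The cause of these shifts was not tested.

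Signs turned for values near 0: Mcm5 between the oxygen conditions was -0.021 with the replicate block and ran from -0.19 to 0.097 with 1 library left out, and in the same way Cdk1 in normoxia-hyperoxia reached 0.13, and with tunicamycin at 24 h Ccnb1 ran from -0.62 to 0.062 and Cdkn1a from -0.055 to 0.072. TMM-adjusted sizes moved the summed CPM of the 40 genes by more than 1 SD in 9 of 16 groups: in C57BL/6J to 533 in 6 h controls, 706 in 24 h controls, 574 and 705 with tunicamycin at 6 h and 24 h, 568 and 764 with cyclosporin A, and 560 in normoxia, and in DBA/2J to 747 with tunicamycin and 936 with cyclosporin A at 24 h. Without those sizes the 6 h and 24 h C57BL/6J controls summed to 480 and 759 CPM. Genes under 1 CPM, such as Ccnb1 and Bub1, with 0 counts in a library, had SEs up to 0.55 over time, and what depth adds to these was not tested.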
